A study of Mus musculus with 2 samples.

Results

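Protein-coding genes without introns were examined in RNA-seq libraries from whole testes of 9-day-old (P9) mice, 1 library from control and 1 library from Bcas2F/-;Vasa-Cre males. Control males were Bcas2F/-, carrying a floxed and a deleted Bcas2 allele, and the mutants carried the same alleles together with Vasa-Cre, whose recombinase is expressed in germ cells and not in the somatic cells of the testis. The labels give C57BL/6 as the strain, the methods of the study describe a mixed 129/C57BL/6 line, and the number of mice behind each library is not given in the sources used here. Values are RPKM, the reads counted on a gene per kilobase of transcript and per 1000000 counted reads, from 19918750 counted reads in control and 19331687 in the mutant. With 1 library per genotype there was no replicate check, so every difference is a description without a p-value. Members were taken from GENCODE M21 on GRCm38 as protein-coding genes in which every annotated transcript has 1 exon, leaving out the mitochondrial chromosome and the replication-dependent histone genes (symbols starting Hist), and they were selected on their expression, with a mean of the RPKM values in control and mutant of at least 5. Of the 39695 gene entries, 1136 were intronless protein-coding genes, of which 596 were at 0 in both libraries, 236 had a mean RPKM of at least 1 and 113 were members. Just inside the limit were Fibin at a mean RPKM of 5.13, Gm10282 at 5.22 and Nanos1 at 5.66, and just outside were Dnajc30 at 4.86, Mocs3 at 4.85 and Nsmce3 at 4.83. The limit was not passed in each library alone, since 4 members had less than 5 RPKM in 1 library and 3 genes outside had at least 5 in 1 library.

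BCAS2 is a subunit of the Prp19 complex, which joins the spliceosome and is needed for its activation. Messenger RNAs of intronless genes carry no introns to be removed, and their production needs transcription, capping and 3′ end formation but no splicing. Many intronless genes of mammals are retrogenes, made when a spliced messenger RNA was copied into DNA and inserted elsewhere in the genome, and a well-known class of these are autosomal copies of X-linked genes that are active in male germ cells, in which the X chromosome is silenced during meiosis. Others are early-response genes, transcription factor genes and variant histone genes.

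The difference that defines these genes is visible in the coding sequence. Of the 113 members, 34 had a coding sequence at least 70% identical over at least 50% of its length to a protein-coding gene with introns, called the similar gene here, and 7 of these were autosomal members whose similar gene lies on the X chromosome. For 4 of these pairs, 60 bases of coding sequence are printed 5′ to 3′ on the gene's own strand (GENCODE M21 transcripts, GRCm38), because they show the place where an intron is removed in the X-linked gene and where the member runs on without one. In each X-linked gene the exon junction lies after base 30, and capitals mark the bases that differ between the members of a pair. Rpl10l, a germ cell paralogue of the ribosomal protein gene Rpl10, is read on the minus strand from chr12:66283999-66284058, and Rpl10 on the plus strand from chrX:74272288-74272317 and chrX:74272672-74272701, with 354 bases of intron between them.
Rpl10l: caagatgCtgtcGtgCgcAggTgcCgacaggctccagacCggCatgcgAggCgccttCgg
Rpl10: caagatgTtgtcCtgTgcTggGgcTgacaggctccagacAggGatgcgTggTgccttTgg
D1Pas1, a copy of the RNA helicase gene Ddx3x, is read on the plus strand from chr1:186968868-186968927, and Ddx3x on the plus strand from chrX:13288911-13288940 and chrX:13289395-13289424, with an intron of 454 bases.
D1Pas1: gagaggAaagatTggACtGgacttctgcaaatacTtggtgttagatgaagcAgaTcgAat
Ddx3x: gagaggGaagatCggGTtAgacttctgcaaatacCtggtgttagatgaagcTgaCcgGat
Mcts2, which lies in an intron of H13, is read on the plus strand from chr2:152687503-152687562, and its similar gene Mcts1, which encodes a translation re-initiation factor, on the plus strand from chrX:38602644-38602673 and chrX:38605939-38605968, with an intron of 3265 bases.
Mcts2: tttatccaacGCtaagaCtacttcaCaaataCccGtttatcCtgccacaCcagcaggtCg
Mcts1: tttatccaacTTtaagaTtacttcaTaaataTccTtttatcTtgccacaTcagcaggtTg
Cstf2t, a copy of the gene for an RNA-binding subunit of the cleavage stimulation factor that acts in 3′ end formation, lies in an intron of Prkg1 on the other strand and is read on the plus strand from chr19:31083982-31084041, and Cstf2 on the plus strand from chrX:134069878-134069907 and chrX:134073136-134073165, with an intron of 3228 bases.
Cstf2t: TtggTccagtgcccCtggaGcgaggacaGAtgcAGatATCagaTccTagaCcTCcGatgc
Cstf2: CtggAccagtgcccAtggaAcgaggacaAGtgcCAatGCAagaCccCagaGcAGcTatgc
Over the aligned bases of the coding sequences, identity was 84.7% for Rpl10l and Rpl10, 87.4% for D1Pas1 and Ddx3x, 85.1% for Mcts2 and Mcts1 and 75.1% for Cstf2t and Cstf2, in alignments of 642, 1977, 543 and 1720 bases. Of the differing bases, 89 of 98 in Rpl10l, 199 of 249 in D1Pas1, 63 of 81 in Mcts2 and 258 of 429 in Cstf2t were at the third position of a codon.

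The targeted gene was examined before the members. Bcas2, which has 6 introns, measured 39.5 RPKM in control and 25.7 RPKM in Bcas2F/-;Vasa-Cre testes, a log2 ratio of −0.60. Cells without Vasa-Cre activity contribute to both libraries, and fewer cells of a type cannot be told apart from less RNA per cell in whole testes. Of the marker lists, 8 of 9 spermatogonial genes and 6 of 6 genes of meiotic prophase were lower in the mutant. Summed RPKM was 768 and 599 for the former and 124 and 87.1 for the latter. The 6 Sertoli cell genes summed to 3337 and 3609, of which Clu alone had 2593 and 2813. Their log2 ratios ran from −0.02 for Amhr2 to 0.36 for Amh. No spermatid marker reached an RPKM of 2 in either library.

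The intronless genes differed little between the libraries. Their median log2 ratio of RPKM + 1, mutant over control, was −0.01 (SD 0.20 over 113 genes), with 59 genes below and 54 above 0, where 47.6% of all protein-coding genes at this level were below 0, against 0.01 (SD 0.19) in the 10094 protein-coding genes with introns at the same limit of RPKM. On this scale, 0 of 113 members passed 1.5-fold downwards and 0 passed it upwards. With pseudocounts of 0.1 and 0.01 the count of lower members was 1, Rpl10l. Among all 10207 protein-coding genes at this expression level, 0.803% were lower by more than 1.5-fold and 0.176% were higher. With RPKM + 1, a count of 0 among 113 would allow a share of up to 2.65% (3 of 113) if the genes were independent draws. Genes measured in the same 2 libraries are not replicates, so this is only a rough guide to what the number of genes allows. A share as low as that of all genes was not detectable with this number of genes. The RPKM of the 113 genes added up to 3331 in control and 3264 in the mutant, and the RPKM of 56 of them differed by less than 1.1-fold. Of these sums, 862 and 816 RPKM came from Rps27rt. Its coding sequence is 100% identical to that of Rps27, a gene with introns, so its reads may not all be its own.

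**Figure D1:**
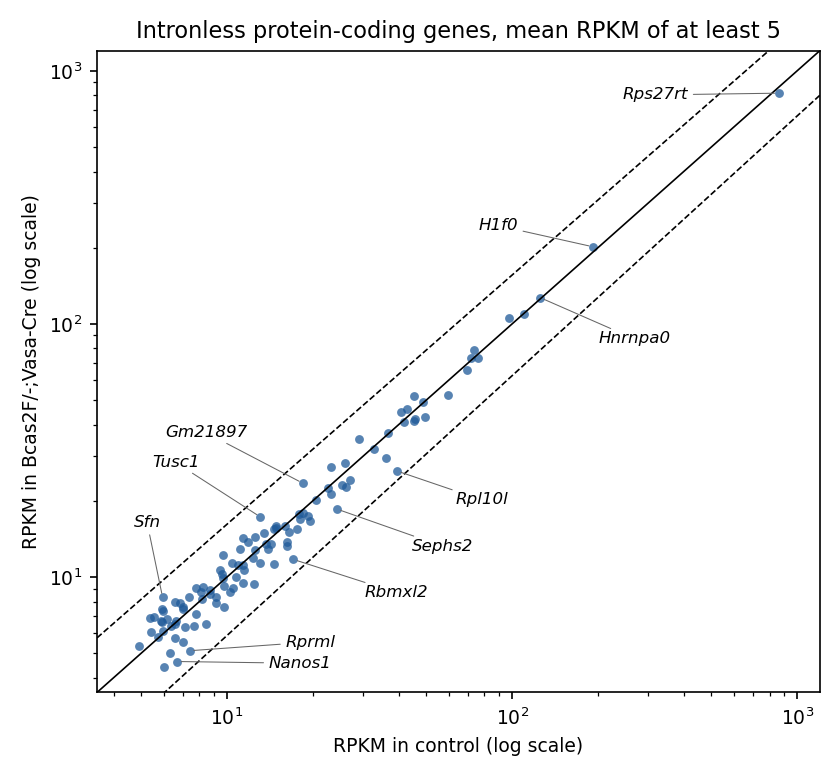
RPKM of the 113 intronless protein-coding genes in control (x axis) and Bcas2F/-;Vasa-Cre testes (y axis), both on a log scale, 1 point per gene. The solid line marks equal RPKM and the dashed lines 1.5-fold on the scale of RPKM + 1, and all points lie between the dashed lines, with Rpl10l nearest to the lower one.

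The precision of single genes was set by their reads. Recovered from the RPKM values, the reads of a member in both libraries together ranged from 36 for Gm21028 to 17663 for H1f0, with a median of 1124. A 95% Clopper-Pearson interval of the log2 RPKM ratio, which covers counting error only and neither animals nor library preparation, had a median width of 0.17 to each side. It lay wholly below 0 in 25 members and wholly above 0 in 25, against 20.1% below and 22.4% above among all protein-coding genes at this level. A gene whose interval leaves out 0 is therefore common in these libraries, with introns or without.

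Members were compared with genes of similar level, since they were expressed lower, with a median of the mean RPKM of 12.7 against 24.8 in genes with introns. From 5 to 10 RPKM the median log2 ratio was 0.02 in 44 members and 0.02 in 1743 genes with introns. From 10 to 20 RPKM it was −0.04 in 36 members and 0.02 in 2493 genes, and from 20 to 50 RPKM it was −0.02 in 23 members and 0.01 in 3259 genes. The 5 members from 50 to 100 RPKM had a median of −0.05 against 0.00 in 1489 genes, and the 5 members at 100 RPKM and over had 0.02 against −0.03 in 1110 genes. Weighted by the members in each class, the medians were −0.01 for intronless genes and 0.02 for genes with introns, a difference of −0.02.

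**Figure D2:**
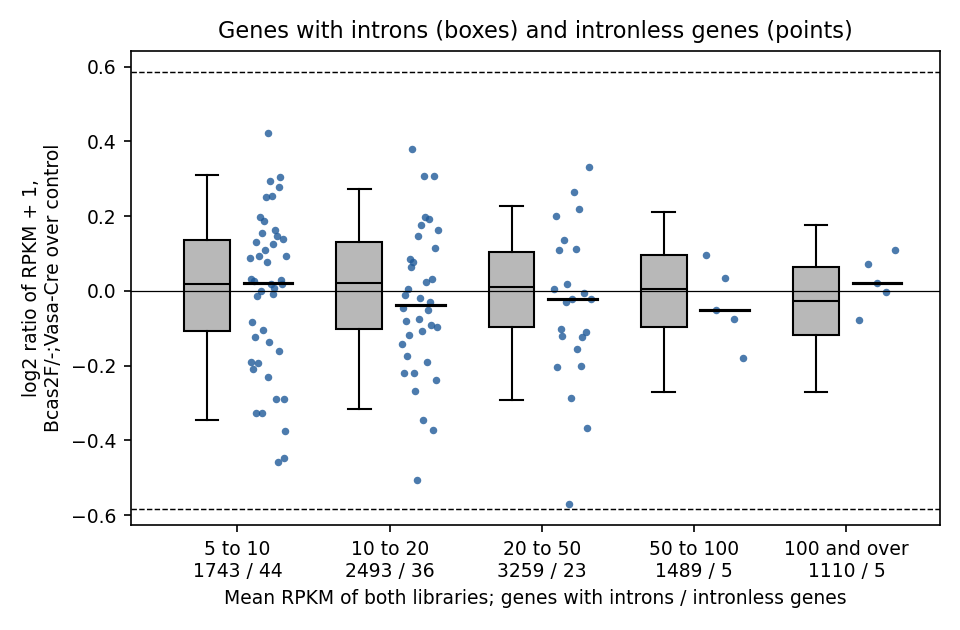
Log2 ratio of RPKM + 1 in Bcas2F/-;Vasa-Cre over control testes by class of mean RPKM. Grey boxes give the median, quartiles and 5th to 95th percentiles of genes with introns, points are single intronless genes with their median as a bar, dashed lines mark 1.5-fold, and the medians of both kinds of gene lie between −0.05 and 0.02 in every class.

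The number of introns was also taken as a scale, with genes at or above 5 RPKM grouped by the most introns in any transcript. Median log2 ratios were −0.01 in the 113 genes without introns, 0.02 in 287 genes with 1 intron, −0.01 in 1929 genes with 2 to 4, 0.00 in 3275 genes with 5 to 9 and 0.02 in 4603 genes with 10 or more. In the 4 classes with introns, in this order, 6, 32, 21 and 23 genes were lower by more than 1.5-fold and 2, 6, 8 and 2 genes were higher, so that 2.09% of genes with 1 intron and 1.66% of genes with 2 to 4 introns were past 1.5-fold on the lower side. At a threshold of 1.2-fold, which was chosen after seeing the data, 14 intronless genes (12.4%) were lower and 9 (7.96%) higher, against 6.96% lower and 4.31% higher among all protein-coding genes at this level. Genes with introns, weighted to the members' classes of RPKM, had 7.71% lower and 5.84% higher. 

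**Figure D3:**
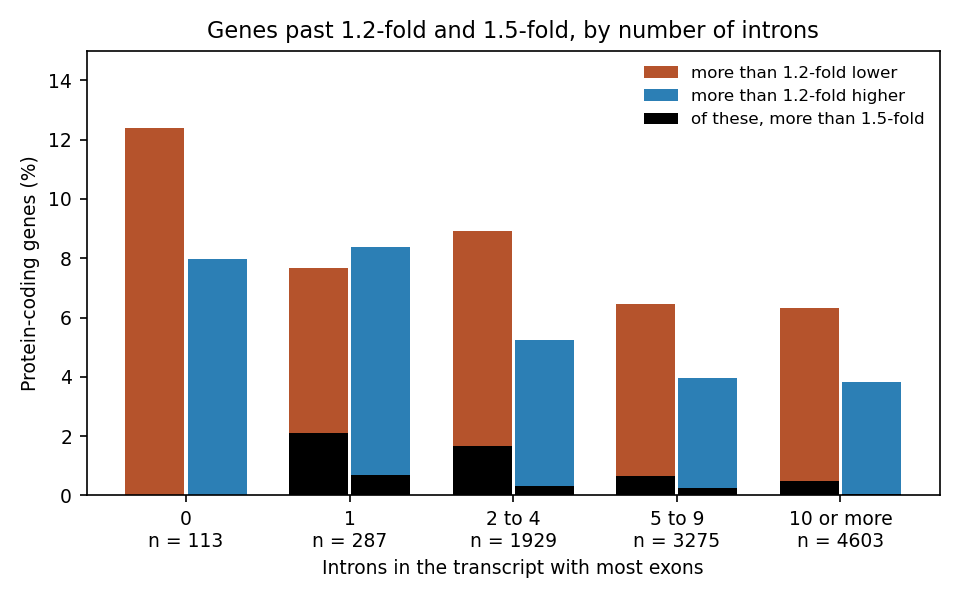
Percent of protein-coding genes at or above 5 RPKM that were more than 1.2-fold lower (orange) or higher (blue) in Bcas2F/-;Vasa-Cre testes, by the largest number of introns in a transcript, with the part past 1.5-fold in black. Intronless genes had 12.4% lower and 7.96% higher at 1.2-fold and no black part, on the scale of RPKM + 1.

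The 10 intronless genes with the highest mean RPKM were nearly level between the libraries. Rps27rt, a copy of the ribosomal protein gene Rps27, had 862 RPKM in control and 816 in the mutant. H1f0, a linker histone of non-dividing cells, had 192 and 202, and Hnrnpa0, an RNA-binding protein of the hnRNP family, had 125 and 127. Pcbp1, which binds poly(C) stretches in RNA, had 110 in both libraries. Eid1, an inhibitor of the acetyltransferase p300, had 97.4 and 105, Cenpb, which binds centromeric DNA, had 73.7 and 78.9, and Ndn, an imprinted gene expressed from the paternal allele, had 76.0 and 73.3. Tmem200b had 71.7 and 73.5 RPKM, Rhob, a small GTPase induced by growth signals, had 69.4 and 65.8, and Imp3, a protein of the small ribosomal subunit processome, had 59.7 and 52.6. The log2 ratios of these genes ran from −0.18 for Imp3 to 0.11 for Eid1.

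Genes for RNA processing and translation included the largest differences. This list held 10 members with a median log2 ratio of −0.04, of which 6 were below 0, and 2 were more than 1.2-fold lower and 1 higher. Of all protein-coding genes at this level, 47.6% were below 0, 6.96% were more than 1.2-fold lower and 4.31% higher. Rpl10l, a single exon at chr12:66283379-66284401, had 39.4 RPKM (802 reads) in control and 26.2 RPKM (518 reads) in the mutant, a log2 ratio of −0.57, the lowest of all members and 1.48-fold on the scale of RPKM + 1. Without the pseudocount its ratio was −0.59 with a counting interval from −0.75 to −0.43. Rbmxl2, a testis-specific RNA-binding protein related to Rbmx with its exon at chr7:107209445-107210916, had 17.1 RPKM (501 reads) and 11.7 RPKM (334 reads), a log2 ratio of −0.51. Set against the 200 genes with introns nearest in mean RPKM, Rpl10l had 2 and Rbmxl2 had 1 of them below it. Both are extremes picked from 113 members, of which 6 lay outside the middle 95% of their own 200 nearest genes. Some genes lie outside this range by definition. D1Pas1 had 7.66 and 6.38 RPKM, a log2 ratio of −0.23. Without the pseudocount the ratio of D1Pas1 was −0.26 with a counting interval from −0.46 to −0.07. Nearly level were Sf3b5, a subunit of the splicing factor SF3b, with 48.8 and 49.0 RPKM, and Cstf2t with 22.7 and 22.6 RPKM. Kti12, a partner of the Elongator complex, had 5.97 and 7.31 RPKM, and Eif3j2, whose product belongs to a translation initiation factor, had 5.94 and 7.51 RPKM, a log2 ratio of 0.29. Rpl10l and Rbmxl2 are genes of male germ cells, and beside them the median log2 ratio was −0.37 in the spermatogonial list and −0.47 in the meiotic list. These 2 genes were singled out as the lowest of all members. Other copies of X-linked genes in this list differed less, with D1Pas1 at −0.23 and Cstf2t at −0.01. Stra8, which marks the entry into meiosis, had 87.2 and 56.8 RPKM. Real-time RT-PCR in the study found Stra8 mRNA similar in both genotypes at P9, and also Dazl, Kit, Sohlh1, Sohlh2 and Ddx4 (Mvh). In these libraries Dazl was at −0.40, Kit at −0.37, Sohlh1 at −0.46, Ddx4 at −0.25 and Sohlh2 at 0.20. At later ages the study found no significant difference in the number of spermatogonia, while it reported lower STRA8 protein. Smc1b, a meiotic cohesin gene, had 25.6 and 11.3 RPKM. The part of germ cell content in the values of Rpl10l and Rbmxl2 was not tested.

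Intronless copies were set beside their X-linked similar genes, which have introns. In 5 of 7 autosomal members the log2 ratio was lower than that of the similar gene, and the median difference, member minus similar gene, was −0.07. Rpl10l was at −0.57 and Rpl10, with 890 and 843 RPKM, at −0.08. D1Pas1 was at −0.23 while Ddx3x, with 256 and 286 RPKM, was at 0.16. For both of these pairs the counting intervals of the member and the similar gene did not overlap. Pairs with both genes on autosomes also lacked overlap, namely Rhob and Rhoc, Sephs2 and Sephs1, Sfn and Ywhaq, and Eif3j2 and Eif3j1. In these the member was lower in some and higher in others, so a lack of overlap was not particular to X-linked similar genes. Eif3j2 and Eif3j1 share sequence, so their reads may not be separate. The pair of Gm21962 and D10Wsu102e is left out. D10Wsu102e had 104118 and 78632 reads at only 42.4 and 33.0 RPKM, and these reads depend on the GENCODE length. Mcts2 had 19.3 and 17.4 RPKM, a log2 ratio of −0.14, against 0.09 for Mcts1 with 44.2 and 47.2. Klhl9, an adaptor of a CUL3 ubiquitin ligase, was at 0.11 and its similar gene Klhl13 at 0.18. Cstf2t and Cstf2 were at −0.01 and 0.01. In the other direction, Rraga, a Rag GTPase of the mTORC1 pathway, was at 0.11 and Rragb at 0.03. Zrsr1, an imprinted relative of a splicing factor that recognises the 3′ splice site, was at 0.14 and Zrsr2 at −0.16. The sequences printed above leave out the pairs of Klhl9, Rraga and Zrsr1, so that in every printed pair the member was the lower gene. Among the 21 autosomal members whose similar gene is autosomal, 10 were lower than the similar gene, with a median difference of 0.03. Leaving out the 3 pairs whose similar gene had a mean under 1 RPKM, a minimum chosen after the values were seen, 10 of 18 were lower and the median difference was −0.09, so its sign rests on those pairs.

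**Figure D4:**
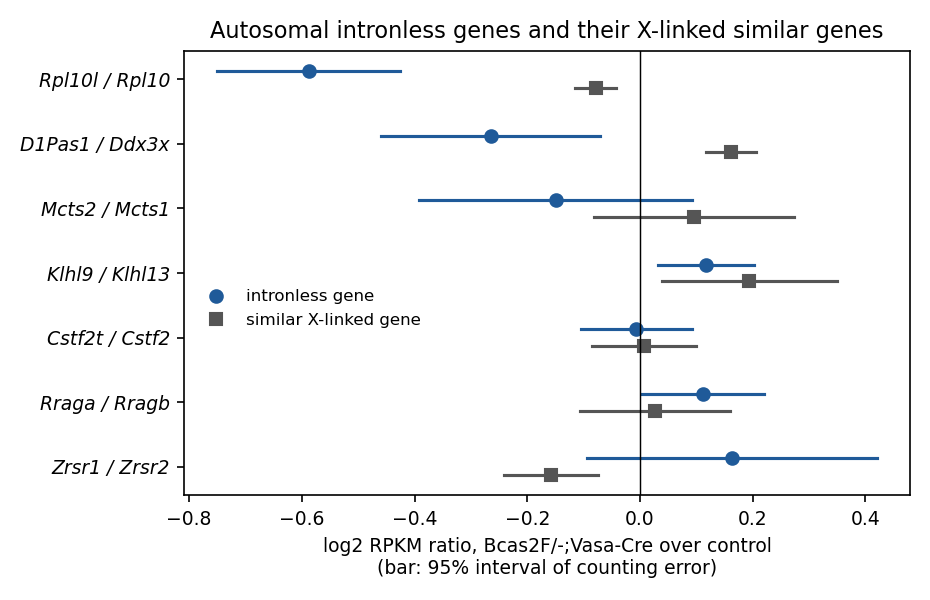
Log2 RPKM ratio without pseudocount, Bcas2F/-;Vasa-Cre over control, of 7 autosomal intronless genes (circles) and their X-linked similar genes with introns (squares), with 95% intervals of counting error as bars. The circle of Rpl10l at −0.59 and that of D1Pas1 at −0.26 lie apart from their squares at −0.08 and 0.16, while the bars of Mcts2, Klhl9, Cstf2t, Rraga and, narrowly, Zrsr1 overlap those of their similar genes.

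Members were often X-linked, and X-linked and autosomal members had medians close to each other. On X were 15 members (13.3%), against 3.97% of genes with introns. The median log2 ratio was 0.00 in these 15 and −0.01 in the 98 autosomal members, against 0.04 in 401 X-linked and 0.01 in 9693 autosomal genes with introns. Ubqln2, a ubiquitin receptor of the proteasome, was the highest X-linked member with 29.1 and 35.1 RPKM, a log2 ratio of 0.27, and Gm44 was the lowest with 14.6 and 11.3 RPKM, a log2 ratio of −0.34.

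Early-response genes, which are transcribed within minutes of a stimulus, are often short and intronless. Of the 6 members of this list, each was below 0, with log2 ratios from −0.33 to −0.03 and a median of −0.16, and 1 of them was more than 1.2-fold lower, where 47.6% of all protein-coding genes at this level were below 0 and 6.96% more than 1.2-fold lower. Ier5l had 8.44 RPKM in control and 6.53 in the mutant, a log2 ratio of −0.33. Ier2 had 19.6 and 16.7 RPKM, and Jund, a subunit of the AP-1 transcription factor, had 49.6 and 42.9, with log2 ratios of −0.22 and −0.20. Ier5 had 9.13 and 8.31 RPKM, Rhob had a log2 ratio of −0.08, and Jun, another AP-1 subunit, had 41.9 and 41.1 RPKM, a log2 ratio of −0.03. The counting intervals of Jun and Ier5 included 0, and those of the other 4 members lay wholly below 0. Larger differences were seen in early-response genes with introns, of which 12 of 14 were below 0 and 6 were more than 1.5-fold lower. Among all protein-coding genes at or above 5 RPKM, 0.803% were lower by more than 1.5-fold. The 14 genes were not held to that limit, and 12 of them reached it. Fosl1 and Egr3, both counted below 0, did not. Fosb had 10.9 RPKM in control and 0.276 in the mutant. Atf3 had 15.7 and 8.48 RPKM, Zfp36 had 8.46 and 4.94, Dusp1 had 11.3 and 6.97, Fos had 11.8 and 7.34, and Ier3 had 7.95 and 4.94. At the other end, Nr4a1 was at 0.06 and Egr2 at 0.38. Of the 14 genes with introns, 7 had a log2 ratio below that of Ier5l. Markers of neutrophils moved in the same direction, with 4 of 4 lower and a summed RPKM of 25.8 in control and 3.12 in the mutant, and macrophage markers summed to 17.8 and 15.6. Of the red cell markers 5 of 6 were lower and 2 were past 1.5-fold, Slc4a1, the anion exchanger of the red cell membrane, with 15.7 and 0.607 RPKM and the globin gene Hbb-bt with 42.4 and 20.3 RPKM, although the summed RPKM of the list was 980 and 944. Whether the content of such cells has a part in the early-response values was not tested.

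**Figure D5:**
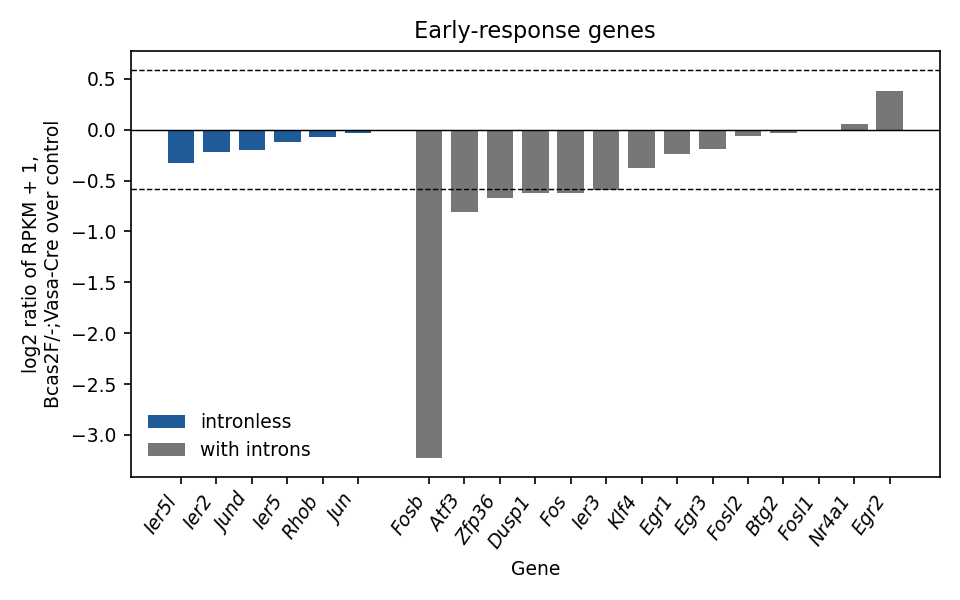
Log2 ratio of RPKM + 1 in Bcas2F/-;Vasa-Cre over control testes for the 6 intronless early-response genes (blue) and 14 early-response genes with introns (grey), with dashed lines at 1.5-fold. The intronless genes lie between −0.33 and −0.03, whereas Fosb reaches −3.22 and 5 other genes with introns lie below the lower dashed line.

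The promoters of 4 of these early-response genes are printed, because the 6 genes lay on the same side of 0. Jund and Ier2 are left out because no promoter was matched to them. They show the 150 bases before the start site, from RefSeq on GRCm38.p6, 5′ to 3′ on the gene's own strand, which is the minus strand in all 4. Capitals mark the CCAAT box, which is searched by the letters of its name, and the GC box, GGGCGG, on either strand. The other motifs searched were the TATA box, TATAAA, the cyclic AMP response element, TGACGTCA, and the AP-1 site, TGACTCA. Jun is read from chr4:95052223-95052372, Ier5 from chr1:155099637-155099786, Ier5l from chr2:30474200-30474349 and Rhob from chr12:8500010-8500159.
Jun: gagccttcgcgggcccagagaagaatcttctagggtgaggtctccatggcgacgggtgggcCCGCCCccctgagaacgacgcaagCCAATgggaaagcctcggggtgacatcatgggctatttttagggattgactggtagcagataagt
Ier5: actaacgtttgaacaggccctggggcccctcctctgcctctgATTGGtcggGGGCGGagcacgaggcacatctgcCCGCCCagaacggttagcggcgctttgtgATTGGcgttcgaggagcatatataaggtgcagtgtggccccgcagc
Ier5l: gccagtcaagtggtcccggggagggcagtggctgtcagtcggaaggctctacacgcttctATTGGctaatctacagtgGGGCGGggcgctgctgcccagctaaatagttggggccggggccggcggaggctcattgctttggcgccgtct
Rhob: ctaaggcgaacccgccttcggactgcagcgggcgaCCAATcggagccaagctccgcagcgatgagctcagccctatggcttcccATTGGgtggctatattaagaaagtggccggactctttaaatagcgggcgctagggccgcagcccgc
A CCAAT box was present in each of these 4 windows. Over 300 bases around the start site, which run from 250 before it to 50 after it, CCAAT was present in 4 of 4 early-response promoters, in 46.3% of the 82 members with a matched promoter, in 39.8% of 7181 promoters of genes with introns at this level and in 38.8% of all 15135 matched promoters. GGGCGG was also in 4 of 4 early-response promoters, and in 61.0% of member promoters and 69.2% of those of genes with introns. TATAAA was in 6 of the 82 and 445 of the 7181, TGACGTCA in 4.88% and 3.47%, and TGACTCA in 2.44% and 3.05%. No early-response promoter held TATAAA, TGACGTCA or TGACTCA. These letters are a description of the window and not a binding site. In base composition the promoters were alike, with an observed over expected ratio of CpG of 0.772 in members and 0.799 in genes with introns as medians, whereas the coding sequence had a median GC content of 61.8% in members and 52.6% in genes with introns. The coding sequence was also shorter, with medians of 972 and 1389 bases.

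Histone, transcription factor and retroelement-derived genes gave mixed values. Of the 3 variant histone genes, H2afx, whose product is phosphorylated at DNA breaks, had 45.2 and 41.5 RPKM and H1fx had 16.2 and 13.3 RPKM, with log2 ratios of −0.12 and −0.27, while H1f0 was at 0.07. Developmental transcription factors had 5 members with a median of −0.02. Sox3, which is active in spermatogonia, had 17.7 and 15.5 RPKM, Sox4 had 13.7 and 13.5, Foxs1 had 11.4 and 11.2 and Foxq1 had 5.72 and 5.80. Only Mafa, a bZIP factor, was past 1.2-fold in this list, with 11.3 and 14.3 RPKM and a log2 ratio of 0.31. Domesticated retroelement and MAGE genes, 4 of 5 of them on X, had a median of 0.11. In this list Mageh1 had 16.5 and 15.1 RPKM, Rtl8c had 10.2 and 8.71, Rtl8b had 7.01 and 7.65, Rtl8a had 5.86 and 6.69 and Rtl6 had 6.15 and 6.80. The counting interval of each of these 5 genes included 0.

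Chaperone and ubiquitin genes had 7 members with a median of 0.03, of which 5 were above 0 and 2 below. Of all protein-coding genes at this level, 47.6% were below 0. Klhl9 had 26.0 and 28.2 RPKM, Fbxl14, an F-box protein, had 10.9 and 11.2, and Kbtbd7, an adaptor of CUL3, had 9.46 and 10.7. The inducible chaperone genes Hspa1b and Hspa1a had 7.76 and 9.04 RPKM and 6.55 and 6.50 RPKM, and Dnajb3 had 6.61 and 6.71. Rnf138rt1, an X-linked copy of Rnf138, was lowest with 150 and 115 reads, a log2 ratio of −0.29. The small GTPase gene Rap2b had 10.4 and 11.3 RPKM, and the zinc finger gene Zfp830 had 10.8 and 9.99.

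The remaining 73 members had a median log2 ratio of 0.00, with 36 below and 37 above 0. The genes named here were chosen after their values were seen, for a difference of more than 1.2-fold. Lower in the mutant were Rprml, with 7.40 and 5.11 RPKM, a log2 ratio of −0.46, and Nanos1, an RNA-binding regulator of the germ line, with 6.69 and 4.64, a log2 ratio of −0.45. Sephs2, a selenoprotein that makes the selenium donor for selenocysteine, had 24.2 and 18.6 RPKM, whereas its similar gene with introns, Sephs1, was at 0.15 and Sephs2 at −0.37. Riox1, a ribosomal oxygenase, had 12.5 and 9.39 RPKM, Thap11, a transcription factor, had 36.2 and 29.4, and Bmyc, a relative of Myc, had 117 and 90 reads. Higher in the mutant were Sfn, a 14-3-3 protein of epithelial cells, with 5.94 and 8.31 RPKM, a log2 ratio of 0.42 and the highest of all members, and Tusc1, with 13.1 and 17.3 RPKM, a log2 ratio of 0.38. The 200 genes with introns nearest to Tusc1 in mean RPKM were all lower in log2 ratio. Tusc1 is 1 of the 6 members, of 113, that lay outside the middle 95% of their nearest genes. Jrkl had 5.53 and 6.92 RPKM and Sft2d3 had 5.38 and 6.88. Of the 14 members more than 1.2-fold lower and the 9 higher, the counting interval left out 0 in 12 and in 8.

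Reads of some members are uncertain because another gene holds the same sequence. Over their whole transcript, 20 members matched another gene elsewhere at 90% identity or more over at least 50% of the length, and 6 of the 23 members past 1.2-fold were among them. Rpl10l matched the processed pseudogene Gm14460, listed at 0 in both libraries. Gm4737, at a log2 ratio of −0.33, matched Ahcy at 99.7%, Gm10282, at −0.37, matched Hmgn2 at 99.3%, and Eif3j2, at 0.29, matched Eif3j1 at 99.4%. Gm21897, at 0.33, matched the unclassified entry Gm47164, and Gm10226, at 0.31, matched Zfp51. Within 1.2-fold were Rps27rt (Rps27), Gm14698 (Styx), Gm21028 (Zfp976), Gm21962 (Gm48415), Imp3 (4933427G23Rik), Rrs1 (Gm21168), Gm18336 (Gm6858), Ccnq (Gm8342), Fthl17c (Fthl17b) and Fthl17d (Fthl17e), with the matching gene in brackets, and the pairs Hspa1a and Hspa1b as well as Rtl8a and Rtl8b, which match each other. A further limit is overlap, since 29 members share exonic bases with another gene, most of them on the other strand, such as Jun with Junos and Eid1 with Shc4, and whether reads were counted by strand is not given in the sources used here. The median log2 ratio was 0.00 in the 20 members that share sequence, −0.02 in the 29 with an overlap and 0.00 in the 84 without an overlap.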

How the data were processed

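The authors removed low-quality reads, aligned paired-end reads to the mouse genome (mm10 and TopHat2 2.0.9 in the submitters' processing notes), used HTSeq to count the reads of each gene, and the values they deposited are RPKM, 1 per gene entry and library. The gene annotation behind them is not given in the sources used here. Of the entries, 37692 were matched by Ensembl identifier to GENCODE M21. Log2 ratios of RPKM + 1 were computed, a scale that understates the change of low genes.

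Library sizes were recovered from the deposited RPKM of genes with 1 transcript. Whole reads (tolerance 0.0001) were found for 109 of 113 members at the transcript length nearest to the annotated one, so reads could be wrong by a whole factor. For the other members and for genes with introns, rounded values at the GENCODE length were used. Recovery and calls were tested on simulated data. Similar genes were found with BLAST+ 2.17.0, and Python 3.11.15, numpy 2.4.6, scipy 1.17.1 and pandas 2.3.3 were used.

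The members and lists were chosen with earlier results of these data known. The fixed rule named Bcas2, members past 1.5-fold, the 10 highest, up to 4 per functional list, those next to the RPKM limit and those sharing sequence. Members named beyond it, such as others of these lists and those past 1.2-fold, were chosen after their values were seen. Mcts2 matched the receptor list by its letters and was kept among the other genes. Alternatives were other pseudocounts, scalings, RPKM and read minimums, definitions of intronless and fold thresholds. No count test was run, since there was 1 library per group.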

Additional observations from a re-analysis of the deposited data

How the results depend on the processing

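No paired analysis was possible because each genotype had 1 library. Of 0 members more than 1.5-fold lower, the count became 1 (Rpl10l) with a pseudocount of 0.1 and 1 with 0.01, 2 with a minimum mean RPKM of 1, 8 with no minimum, and 14 at 1.2-fold, an alternative chosen after seeing the data. Of 0 members more than 1.5-fold higher, the count became 2 with a minimum of 1, 6 with no minimum and 9 at 1.2-fold. Both counts stayed at 0 with the median of all tested genes set to 0, with a library sum of 1000000 RPKM, a minimum of 10, exons of coding transcripts only (120 genes), without overlapping, sequence-sharing or early-response members, with at least 30 reads, at 2-fold and with the counting interval required. The difference between intronless genes and genes with introns ranged from −0.04 with a minimum of 10 to −0.00 with no minimum. The median of the members was 0.02 with rescaled RPKM, which moved the median of all genes by 0.03. Medians of functional lists and values of 67 named genes moved by less than the counting error under the pseudocounts and scalings. What limits the result is the number of libraries and, for genes near 5 RPKM, their reads.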

Other observations

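Genes whose coding region lies in 1 exon but whose transcripts have an intron elsewhere were set beside the intronless genes. There were 282 of them with a mean RPKM of at least 5, with a median log2 ratio of 0.04, 4 lower and 0 higher by more than 1.5-fold. The 4 were Dusp14, with 8.01 RPKM in control and 4.50 in the mutant, Fam90a1b with 11.5 and 6.66, Socs3, a feedback inhibitor of cytokine signalling, with 15.2 and 9.35, and Smim10l2a with 15.5 and 9.97. At the other end, Bbs12, a chaperonin-like gene of the BBSome pathway, had 5.33 and 7.49 RPKM, and the diphosphoinositol polyphosphate phosphohydrolase genes Nudt11 and Nudt10 had 11.5 and 15.7 and 4.55 and 6.15. On X were 16.7% of these genes. They were chosen after their values were seen.

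Below the limit of 5 RPKM, 123 intronless genes had a mean RPKM of at least 1, and 2 of them were lower and 2 higher by more than 1.5-fold (1.63% each), beside 2.74% and 1.08% of the 2775 protein-coding genes of any kind between 1 and 5 RPKM. Epop, a cofactor of Polycomb repressive complex 2, had 3.65 and 1.67 RPKM (169 and 75 reads), and Otud6a, a deubiquitinase gene, had 1.67 and 0.474 RPKM (29 and 8 reads). Higher in the mutant were 4930518I15Rik, with 1.06 and 2.37 RPKM (28 and 61 reads), and Gm21060, with 3 and 6 reads.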
